A study of Mus musculus with 8 samples.

Results

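miR-210 is the microRNA most regularly linked to low oxygen, and its TaqMan assay was 1 of the 381 assays listed on the rodent cards used for liver RNA. The assay was found by its name alone, and miR-210 was chosen from earlier results on these same cards, so its levels are given as a description with no test. Whole liver of female mice, strain label C57B6 and 4 weeks old at the start, was profiled untreated and after carbon tetrachloride (CCl4) for 1, 4 or 8 weeks. The treated groups started at the same age, so weeks of CCl4 and age at the end cannot be told apart. CCl4 was given in corn oil by intraperitoneal injection, 2 injections a week according to the methods of the study, at 1 mg/kg according to the labels (the methods give the same number in ml/kg). Untreated mice carry the label none, and no group labelled as given corn oil alone was analysed here. Each of the 4 groups had 2 cards, 8 in all. The labels do not say whether the cards of a group came from separate mice, and p-values below measure only the spread between cards, which may be technical.

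miR-210 is transcribed under the control of the hypoxia-inducible factors, transcription factors whose alpha subunits are destroyed while oxygen is plentiful. Among its known targets are Iscu, a scaffold for iron-sulphur clusters in mitochondria, and Efna3, an ephrin ligand with a part in vessel growth. In liver the cells around the central vein receive the least oxygen and are also those in which cytochrome P450 turns CCl4 into a toxic radical.

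The sequences are shown because the card gives the name miR-210 without an arm, a name long used for the 3p strand, and because the seed (bases 2 to 8, in capitals in the mature strands) sets which transcripts a miRNA can pair with. They come from RefSeq with the mouse build GRCm38.p6, and the gene lies on the minus strand of chromosome 7. In the hairpin (chr7:141221384-141221493, 110 bases) the capitals mark the 3p strand.
miR-210-3p: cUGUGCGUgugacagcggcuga
miR-210-5p: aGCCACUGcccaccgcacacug
mir-210 hairpin: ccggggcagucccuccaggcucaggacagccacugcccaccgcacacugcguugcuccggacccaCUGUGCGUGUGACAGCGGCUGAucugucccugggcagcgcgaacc
The 3p strand covers chr7:141221407-141221428 and the 5p strand chr7:141221445-141221466, each 22 bases long. Of the 1738 mature mouse sequences in the table, only miR-210-3p itself carries its seed. The hairpin overlapped 0 annotated genes. The nearest gene was Rassf7 at 2726 bases, followed by Lmntd2 at 5867 and Gm51460 at 6713, and the nearest other miRNA gene, Mir7063, was 399208 bases away.

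The readout of an assay is its threshold cycle (Ct), the PCR cycle in which its fluorescence passes a set line. More template brings an earlier Ct, by 1 cycle for about 2-fold more. miR-210 had a determined Ct on all 8 cards. On the untreated cards its Ct was 27.55 in replicate 1 and 25.83 in replicate 2. After 1 week it was 28.43 and 27.96, after 4 weeks 28.09 and 29.21, and after 8 weeks 27.52 and 29.90. Before any normalization the treated cards were thus later on average, with mean Ct of 28.2, 28.65 and 28.71 against 26.69, but 8-week replicate 1 was 0.03 cycles earlier than untreated replicate 1. The mean Ct over all cards was 28.06, place 62 by earliest mean Ct among the 168 assays determined on every card, an order that also carries the efficiency of each assay.

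The cards themselves differed, and each Ct was therefore subtracted from the card mean of 149 assays whose Ct never exceeded 35 (the centring), which gives a value on a log2 scale. On this scale miR-210 was at 0.80 and 2.16 on the untreated cards (mean 1.48 ± 0.97, SD, n = 2 cards). It was at 0.34 and 0.64 after 1 week (mean 0.49 ± 0.21, n = 2) and at 0.16 and 0.56 after 4 weeks (mean 0.36 ± 0.28, n = 2). After 8 weeks it was at -0.04 and -1.02 (mean -0.53 ± 0.70, n = 2). Untreated replicate 2 stood alone at the top and 8-week replicate 2 alone at the bottom. Each of the 6 treated cards lay below both untreated cards with this centring, the closest pair being 1-week replicate 2 and untreated replicate 1, 0.16 apart. With the mean of the endogenous controls U6, snoRNA135 and snoRNA202 as the reference, 4 of the 6 treated cards did so, none of them after 4 weeks. With snoRNA202 alone 2 did so, none of them after 1 or 4 weeks, and with no normalization 5 did. Of all 166 assays tested, 27 (16.3%) had every treated card below both untreated cards, so the separation by itself was not rare on these cards.

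**Figure D1:**
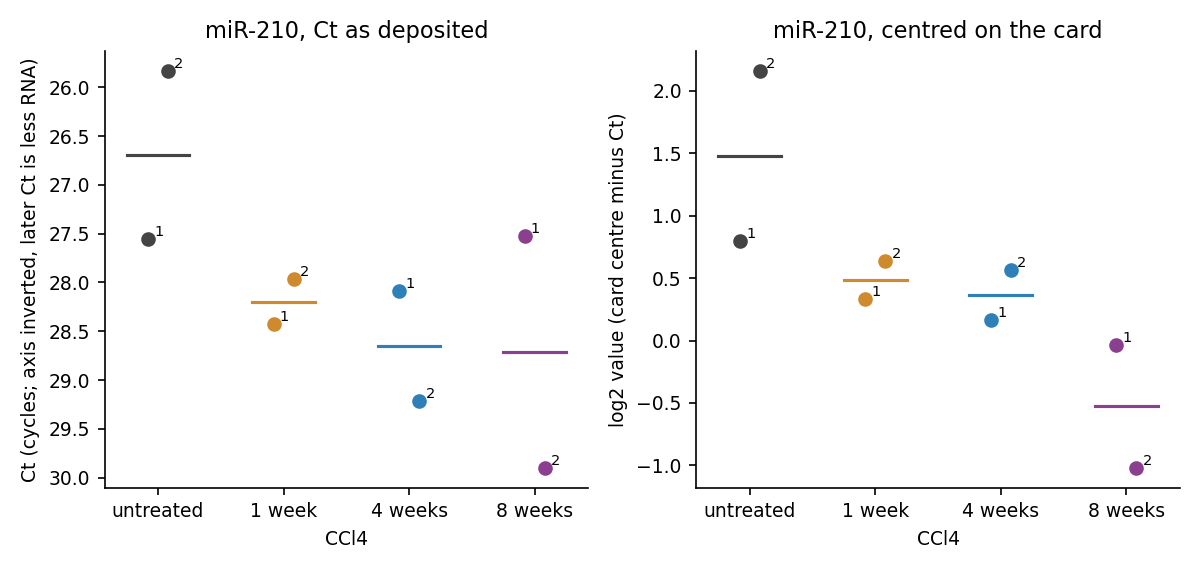
miR-210 on each card: Ct as deposited (left, cycles, axis inverted) and log2 value centred on the card (right), with points numbered by replicate and bars at the mean of the 2 cards of a group. After centring, the treated cards lie between -1.02 and 0.64 and the untreated cards at 0.80 and 2.16. Before centring, 8-week replicate 1 overlaps the untreated cards.

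As linear values relative to the geometric mean of the untreated cards, miR-210 was at 0.623 and 1.61 without treatment, 0.453 and 0.558 after 1 week, 0.402 and 0.530 after 4 weeks, and 0.350 and 0.177 after 8 weeks. The group means were 1.11 ± 0.70, 0.505 ± 0.074, 0.466 ± 0.091 and 0.263 ± 0.12 (SD, n = 2 cards each). The order of the levels was thus untreated, 1 week, 4 weeks and 8 weeks. The cards after 1 and 4 weeks overlapped, with a log2 difference of -0.12 between their means (standard error 0.52), and this order turned when the endogenous controls were the reference. The step from untreated to 1 week, -0.99, was smaller than the gap of 1.37 between the untreated cards. The step from 4 to 8 weeks, -0.89 (standard error 0.52), was smaller than the gap of 0.99 between the 8-week cards, and the pairs did not overlap with this centring but did with the geometric mean of all determined assays (4-week cards at 1.79 and 1.44, 8-week replicate 1 at 1.47). No neighbouring groups in the order therefore differed by more than the wider of their own replicate gaps. With this centring the difference between the ends of the order, untreated and 8 weeks, did exceed both gaps. In Ct as deposited (means of 26.69 and 28.71) it was smaller than the gap between the 8-week cards (27.52 and 29.90).

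miR-210 was among the less repeatable assays. Its replicate SD, pooled over the groups, was 0.62 on the log2 scale against a median of 0.39 over the tested assays, and 32 assays had a larger one. Its untreated cards differed by more than the median gap of 0.36, and 11 assays had a larger untreated gap. Which untreated card is taken as the reference therefore sets the size of the difference. Against untreated replicate 1 the treated cards were at -0.46 and -0.16 after 1 week, -0.63 and -0.23 after 4 weeks, and -0.83 and -1.82 after 8 weeks. Against untreated replicate 2 they were at -1.83 and -1.53, -1.998 and -1.60, and -2.20 and -3.18. All of these centred values were below 0, and the span at each time was set mainly by the untreated cards.

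The log2 differences of the group means, from 1 limma fit over all cards and tested assays, were -0.99 after 1 week, -1.11 after 4 weeks and -2.01 after 8 weeks (standard error 0.52 for each), which correspond to 0.503, 0.462 and 0.249 of the untreated level. All 3 share the untreated cards. Relative to the median difference of all tested assays (-0.09, 0.03 and -0.04) they were -0.90, -1.14 and -1.97. Using 1 control RNA as the reference, a choice made with the data in view, put miR-210 at 0.40 after 1 week with snoRNA202 and at 0.39 after 4 weeks with U6, with the median of all assays at 1.31 and 1.53 in those same settings. Relative to that median miR-210 was still at -0.91 and -1.15, since a constant added to a card moves every assay alike.

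The place of miR-210 among the tested assays, counted from the most negative difference, was 35 of 166 after 1 week, 34 after 4 weeks and 2 after 8 weeks. After 1 week it lay between miR-676 (-0.998) and miR-10a (-0.98), well inside the lower tail that ended with miR-29b at -2.50. After 4 weeks its neighbours were miR-30b (-1.15) and miR-15a (-1.10), and the lowest assay was miR-802 at -3.28. After 8 weeks only miR-802, a hepatocyte-enriched miRNA, was lower (-2.04, standard error 0.29). Next above miR-210 came miR-133a, a muscle miRNA (-1.96, standard error 1.49), miR-193 (-1.63, standard error 0.56) and miR-101a (-1.58, standard error 0.51). These neighbours after 8 weeks were within 1 standard error of miR-210, so the place has no precise meaning. It was between 2 and 5 with any single card left out, and 13 of 217 when undetermined values were set to Ct 40, where it was 53 after 1 week and 57 after 4 weeks. With 1 card left out the place lay between 9 and 74 after 1 week and between 19 and 59 after 4 weeks, the extremes being the fits without untreated replicate 1 and without untreated replicate 2.

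**Figure D2:**
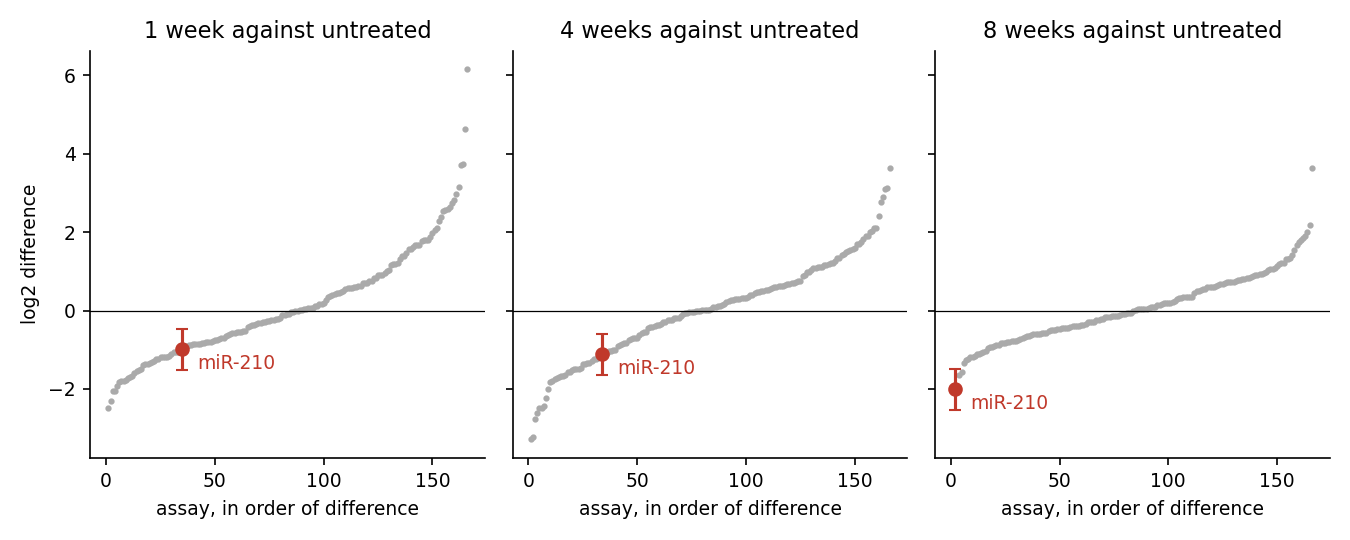
The 166 tested assays in order of their log2 difference from untreated (vertical axis) after 1, 4 and 8 weeks; miR-210 is the large point, with a bar of 1 standard error from limma (0.52). It lies at places 35, 34 and 2 from the lowest.

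With this centring, both 8-week cards were lower than each of the other 6 cards for 3 of the 166 tested assays (1.81%): miR-210, miR-17 and miR-222, the last named here after its values had been seen. miR-17, of the miR-17 cluster, was at 3.72 and 3.52 on the 8-week cards and at 3.94 and 4.46 on the untreated cards, a difference of -0.58 (standard error 0.32). The highest 8-week card lay 0.20 below the nearest other card for miR-210, 0.12 for miR-17 and 0.082 for miR-222. For miR-210 this separation did not hold with every reference. With the geometric mean of all determined assays 8-week replicate 1 was at 1.47, above 1-week replicate 1 (1.31) and 4-week replicate 2 (1.44), and with the mean of the controls it was at -6.26, above 1-week replicate 1 (-6.63). Against 1 week the 8-week difference was -1.01 for miR-210 (standard error 0.52) and -1.005 for miR-17 (standard error 0.32), and against 4 weeks it was -0.89 and -0.39.

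The size of these values rested on the untreated cards more than on the treated ones. Without untreated replicate 2 the differences of miR-210 were -0.31, -0.43 and -1.32 after 1, 4 and 8 weeks, and without untreated replicate 1 they were -1.68, -1.80 and -2.69. Without 8-week replicate 2, the lowest card, the 8-week difference was -1.51, and without 8-week replicate 1 it was -2.50.

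**Figure D3:**
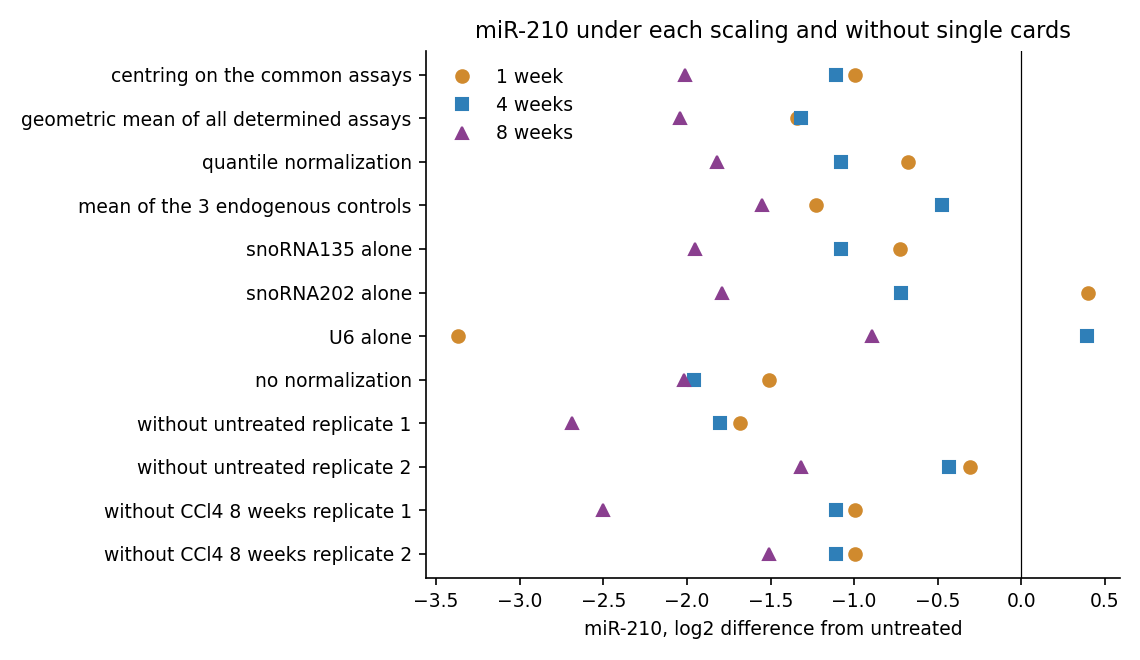
Log2 difference of miR-210 from untreated (horizontal axis) after 1, 4 and 8 weeks under each scaling and without single cards. The settings right of 0 are snoRNA202 alone after 1 week (0.40) and U6 alone after 4 weeks (0.39).

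Other miRNAs reported to rise in cells held at low oxygen were then read beside miR-210. Of 16 such miRNAs, 15 were on the card and 13 were tested. miR-181b was not among the assays, miR-23a had no Ct on any card, and miR-181c had a mean Ct of 35.05. After 1 week 3 of the 13 fell and 1 rose at an adjusted p of 0.05 (limma, Benjamini-Hochberg over all tested assays), where 14.5% of all tested assays fell and 18.1% rose, and the median of the list was -0.69 against -0.09 over all assays. After 4 weeks 4 fell and 1 rose, against 16.9% and 13.3% of all assays, with medians of -0.55 and 0.03. After 8 weeks limma called 0 of the 13, against 0.602% of all assays lower and 2.41% higher, and the medians were -0.48 and -0.04. The sign of the list median turned with the reference, to 0.70 after 1 week with snoRNA202 alone, to 0.088 after 4 weeks with the mean of the controls, and to 0.95 and 0.635 after 4 and 8 weeks with U6 alone. The calls turned too, and so did those of all assays. After 1 week 12 of the list fell and 0 rose with U6 alone (124 and 2 of all 165 assays) and 0 fell and 3 rose with snoRNA202 alone (0 and 81 of 165). After 4 weeks 2 fell and 4 rose with the mean of the controls (11 and 45 of 166) and 0 fell and 5 rose with U6 alone (2 and 80 of 165).

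miR-107, which sits in a pantothenate kinase gene and acts on lipid and glucose metabolism, had the largest decrease of the list after 1 week. It was at -1.64 and -1.83 on the untreated cards, -2.58 and -3.93 after 1 week, -4.47 and -4.23 after 4 weeks, and -3.12 and -2.82 after 8 weeks. Every treated card lay below both untreated cards, as for 27 of all 166 tested assays (16.3%). The differences were -1.52 after 1 week (standard error 0.45, limma adjusted p = 0.0338), -2.61 after 4 weeks (adjusted p = 0.00579) and -1.23 after 8 weeks (adjusted p = 0.160). The call after 4 weeks held in each fit without 1 card and was lost with U6 alone, while that after 1 week was lost without either untreated card or without 1-week replicate 2 (adjusted p up to 0.823 over all alternatives, with snoRNA202 alone) and held in 3 of 7 other scalings. Its close relative miR-103 was at -0.91, -0.87 and -0.48 at the 3 times, none of which passed the test (adjusted p = 0.0682, 0.0835 and 0.359).

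miR-192, abundant in hepatocytes and induced by p53, had the largest decrease of the list after 4 weeks. Its values were 6.94 and 7.16 untreated, 6.48 and 6.46 after 1 week, 4.76 and 3.81 after 4 weeks, and 6.20 and 5.54 after 8 weeks. The 4-week difference from untreated was -2.76 (standard error 0.40, limma adjusted p = 0.00455), a call lost with U6 alone. The differences of -0.58 after 1 week and -1.18 after 8 weeks did not pass (adjusted p = 0.282 and 0.141). Whether the time courses of miR-192 and miR-210 differed was not tested.

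miR-26a and miR-26b, sister miRNAs known to restrain proliferation, fell after 1 and 4 weeks. miR-26a was at 4.79 and 4.77 untreated, 3.77 and 3.67 after 1 week, 3.73 and 3.804 after 4 weeks, and 4.33 and 4.33 after 8 weeks. Its differences were -1.06 (limma adjusted p = 0.0190), -1.01 (adjusted p = 0.0213) and -0.45 (adjusted p = 0.275), with a standard error of 0.26. miR-26b was at -1.10, -1.28 and -0.58 (standard error 0.30, limma adjusted p = 0.0271, 0.0142 and 0.245). The directions turned with single controls, to 0.335 and 0.29 after 1 week with snoRNA202 and to 0.495 and 0.22 after 4 weeks with U6. Of 7 other scalings, the call after 1 week held in 4 for each of the pair, and the call after 4 weeks held in 1 for miR-26a and 0 for miR-26b (adjusted p up to 0.598 and 0.837), and all 4 calls were lost without either untreated card.

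miR-155, an immune miRNA that is on this list and on the next, rose after 1 and 4 weeks. It was at -2.26 and -1.81 untreated, -0.89 and -0.37 after 1 week, -0.85 and -1.17 after 4 weeks, and -1.54 and -1.56 after 8 weeks. The differences were 1.40 (standard error 0.32, limma adjusted p = 0.0157), 1.03 (adjusted p = 0.0457) and 0.49 (adjusted p = 0.337). With U6 alone the value after 1 week was -0.975. The call after 4 weeks was lost in each of the 8 fits without 1 card, and that after 1 week without untreated replicate 1 or 1-week replicate 2. Each call held in 3 of 7 other scalings, and that after 1 week was lost with the geometric mean, the mean of the controls, no normalization and U6 alone.

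The other members of the list passed no comparison with untreated. miR-23b, miR-24 and miR-27a, from the paired miR-23-27-24 clusters, were at -1.18, 0.60 and 0.00 after 1 week, -0.25, -0.89 and 0.62 after 4 weeks, and -0.59, -0.60 and 0.31 after 8 weeks, with limma adjusted p between 0.0649 and 0.995. miR-125b-5p was at -1.24, 0.71 and 0.04, miR-181a at -0.69, 1.53 and 0.17, miR-195 at -0.53, -0.55 and -0.14, and miR-322 at -0.25, 0.68 and -0.64. The list did not move as one: after 8 weeks 9 of the 13 differences were below 0, the lowest at -1.23. That miR-210 lay lower still follows from its place of 2 among all 166 assays, since miR-802 is not on the list. The median difference of all tested assays was itself below 0 at that time, at -0.04.

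A second list held 8 miRNAs reported to target Hif1a, the oxygen-regulated subunit. All 8 were on the card and 7 were tested, since miR-199a-5p had a Ct on 1 card. After 1 week miR-20a fell and miR-155 rose, 1 of the 7 each way against 14.5% and 18.1% of all assays. miR-20a, of the miR-17 cluster, was at 2.74 and 2.83 untreated and 1.81 and 1.14 after 1 week, a difference of -1.31 (standard error 0.39, limma adjusted p = 0.0362) that became 0.085 with snoRNA202 alone and lost its call without either untreated or either 1-week card and in 4 of 7 other scalings. After 4 weeks miR-18a, miR-155 and miR-199a-3p rose, 3 of the 7 against 13.3% of all assays, a count that was 0 with the geometric mean, quantile normalization, no normalization or snoRNA135 alone, where 12, 20 and 1 of 166 and 17 of 165 assays were higher. miR-18a, of the same cluster, was at 1.51 (standard error 0.47) and miR-199a-3p, abundant in mesenchymal cells, at 1.10 (standard error 0.34), each with a limma adjusted p of 0.0457. These calls were held in 2 and 1 of the 8 fits without 1 card (adjusted p up to 0.720 and 0.872 over the alternatives). After 8 weeks limma called 0 of the 7, against 0.602% of all assays lower and 2.41% higher. The medians of the list were 0.43, 0.30 and 0.49 at the 3 times against -0.09, 0.03 and -0.04 over all assays, and turned to -1.95 after 1 week with U6 alone and, with no normalization, to -0.085 after 1 week and -0.545 after 4 weeks.

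Over both lists together, 19 assays were tested, and after 8 weeks 2 of them, miR-107 and miR-192, had an unadjusted limma p below 0.05, against 40 of all 166 assays (24.1%). The members that did not pass included miR-17 (0.43, -0.19 and -0.58 at the 3 times), miR-20b (-0.12, 0.30 and 0.55) and miR-429 (0.82, -1.35 and -1.05). Between times, limma called 78 of the 166 tested assays after 4 weeks against 1 week (47%), among them 4 of the 13 of the first list and 2 of the 7 of the second. It called 40 after 8 weeks against 1 week (24.1%), of the lists only miR-24, whose call held in 3 of 7 other scalings and whose direction turned with U6 alone (2.29). After 8 weeks against 4 weeks it called miR-685 and miR-137 (1.2%) and no list member.

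**Figure D4:**
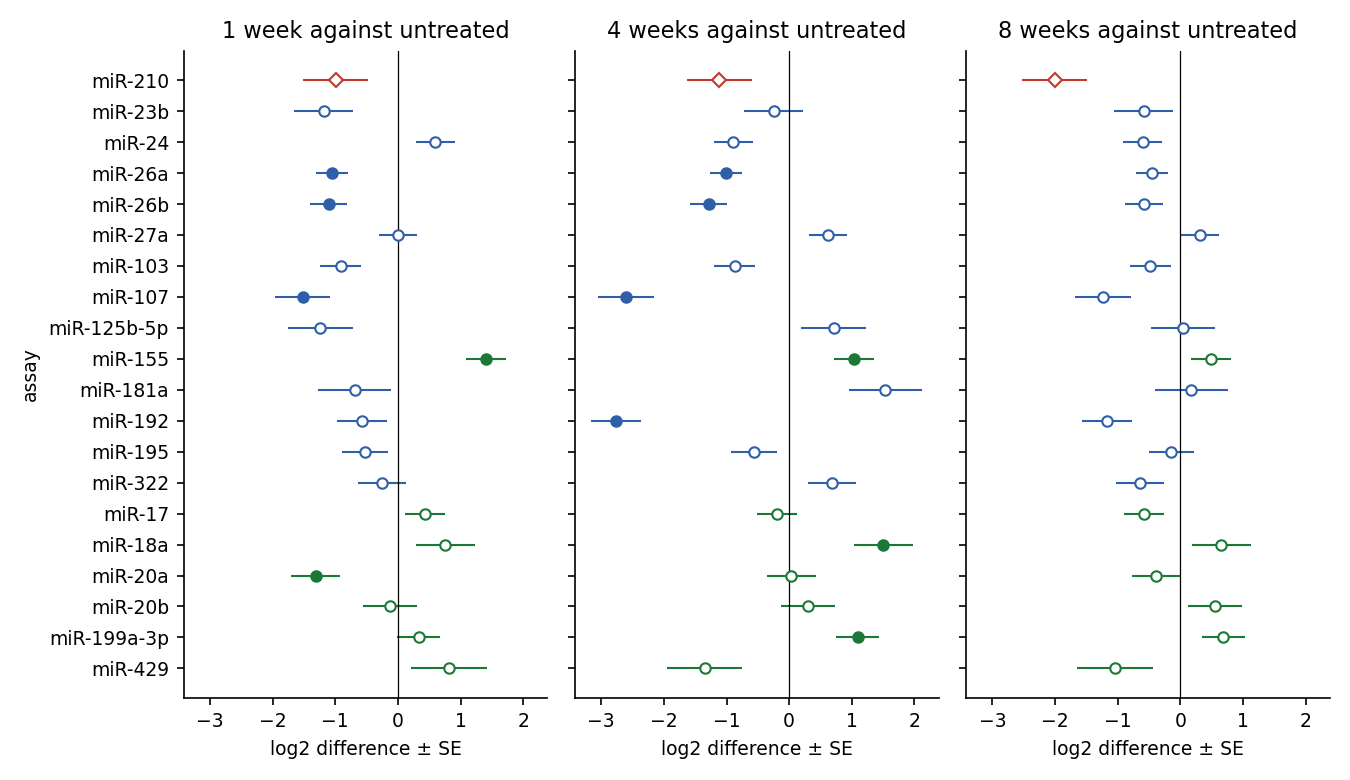
Log2 difference from untreated with its standard error (horizontal axis) for miR-210 (diamond) and the 19 tested list members after 1, 4 and 8 weeks. Blue marks miRNAs raised at low oxygen, green those reported to target Hif1a (miR-155 is on both), and filled points passed a limma adjusted p of 0.05 (miR-210 is shown without a test). After 8 weeks no point is filled and miR-210 lies at -2.01.

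Likeness to miR-210 was described by the Pearson correlation of centred log2 values over the 8 cards, which share their centring and the order of the groups and are no independent points. Over the other 165 tested assays r ran from -0.785 to 0.678 with a median of 0.039, and 86 were above 0. The 5 assays most alike were miR-139-5p (r = 0.678, Spearman's rho 0.738), miR-101a (0.651, rho 0.690), miR-143 (0.619, rho 0.690), miR-30a (0.589, rho 0.429) and miR-30e (0.588, rho 0.595). The likeness came in part from the untreated cards. Over the 6 treated cards r was 0.484, 0.375, 0.328, -0.179 and 0.397 in the same order, and without untreated replicate 2 it was 0.533, 0.511, 0.519, 0.228 and 0.463.

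miR-139-5p, the most alike, was at 2.62 and 3.01 untreated, 2.80 and 2.95 after 1 week, 1.76 and 2.16 after 4 weeks, and 2.21 and 2.04 after 8 weeks. Unlike miR-210 it was not below the untreated cards after 1 week. Its differences were 0.06, -0.85 and -0.69 (limma adjusted p = 0.908, 0.0664 and 0.201). miR-101a, enriched in hepatocytes, had differences of -0.57, -2.23 and -1.58, of which that after 4 weeks passed (adjusted p = 0.0142) but not without either untreated card or without 4-week replicate 2. Among the others, miR-30e passed after 4 weeks (-1.79, adjusted p = 0.00988, lost without untreated replicate 2) and miR-30a after 1 week (-1.23, adjusted p = 0.0190, but 0.16 with snoRNA202 alone, and lost without either untreated or either 1-week card), while miR-143, a smooth muscle and stromal miRNA, lay within -0.38 and -0.30 at each time. The 4-week calls of miR-101a and miR-30e were also lost with U6 alone and with snoRNA202 alone. With no normalization the calls of miR-30e and miR-30a were lost, and with snoRNA135 alone that of miR-30a.

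The 3 assays most opposite were miR-34a (r = -0.785, rho -0.810), miR-497 (-0.763, rho -0.833) and miR-184 (-0.696, rho -0.476). miR-34a, a p53 target, was at -1.62 and -1.71 untreated, 0.17 and -0.37 after 1 week, -0.27 and -0.19 after 4 weeks, and -0.15 and 0.14 after 8 weeks. It rose at each time, by 1.56, 1.44 and 1.66 (limma adjusted p = 0.00804, 0.0110 and 0.0231), though its value after 1 week was -0.815 with U6 alone. All 3 calls were lost with the geometric mean of all determined assays and without untreated replicate 1. The 8-week call held in 2 of the 8 fits without 1 card, those without a 4-week card, and was lost in the fit to the groups compared (adjusted p from 0.00270 to 0.956 over all alternatives), and the 4-week call was also lost without untreated replicate 2 and the 1-week call without 1-week replicate 1. Over the treated cards r was -0.598 for miR-34a, -0.520 for miR-497 and 0.140 for miR-184, so that for miR-184 the relation rested on the untreated cards. With the endogenous controls as the reference the signs of all 8 correlations were kept, at 0.690, 0.440, 0.191, 0.468 and 0.238 for the alike and -0.660, -0.362 and -0.734 for the opposite assays.

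**Figure D5:**
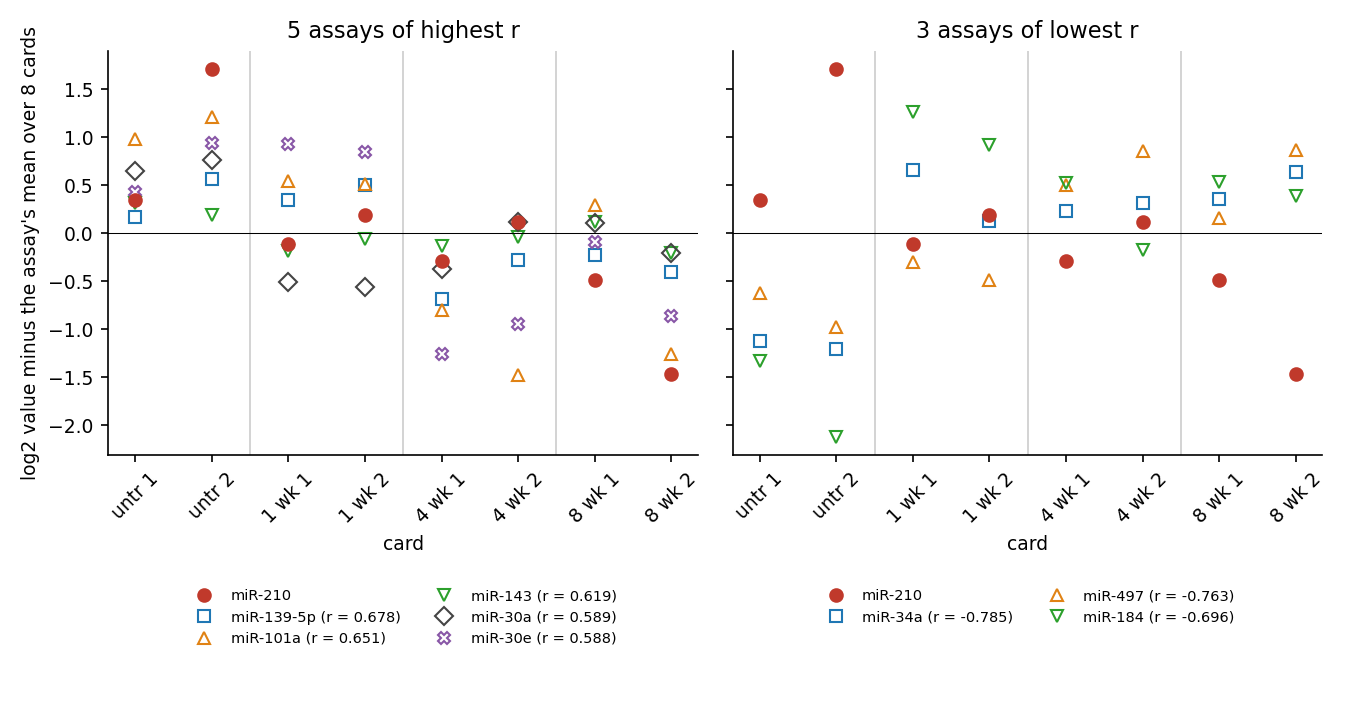
Log2 value of each card minus the mean of the assay over the 8 cards (vertical axis), for miR-210 and the 5 assays of highest (left) and 3 of lowest (right) Pearson r with it. Both untreated cards are above 0 for miR-210 and below 0 for the 3 opposite assays.

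The RNA came from whole liver, in which fewer cells of a type and less RNA per cell cannot be told apart. miR-122, the defining miRNA of hepatocytes, had a mean Ct of 22.85 and was determined on all 8 cards. Its differences were -1.20, -0.23 and 0.09 at the 3 times (limma adjusted p = 0.0949, 0.740 and 0.922), so it passed at none, and after 4 weeks it was the hepatocyte marker outside the 5 that were lower. The levels of some cell type markers moved with the groups. The sums below are of linear values, so the assays of earliest Ct weigh most. Among the hepatocyte markers these are miR-192 (mean Ct 22.59) and miR-122. Summed over 6 hepatocyte-enriched miRNAs and relative to untreated (0.983 and 1.02), the level was 0.576 to 0.594 after 1 week, 0.339 to 0.380 after 4 weeks and 0.592 to 0.690 after 8 weeks, with 1, 5 and 1 of the 6 lower by limma, against 14.5%, 16.9% and 0.602% of all assays. The 5 after 4 weeks became 1 with U6 alone and 3 with snoRNA202 alone, where 2 and 10 of all 165 assays were lower. The 1 after 8 weeks was miR-802, itself the only 1 of all 166 assays called lower at that time. With the centring used here this sum was lowest after 4 weeks, and the miR-210 cards after 8 weeks were at 0.177 and 0.350. Over 7 leukocyte miRNAs the level was 0.745 to 1.25 untreated, 3.65 to 3.95 after 1 week, 2.73 to 3.76 after 4 weeks and 1.39 to 1.97 after 8 weeks, with 6, 4 and 0 of the 7 higher, against 18.1%, 13.3% and 2.41% of all assays. With U6 alone the 6 after 1 week became 0, where 2 of all 165 assays were higher. They became 3 with the geometric mean (18 of all 166 assays) and 1 with no normalization (4 of 166). The 4 after 4 weeks became 2 with the geometric mean (12 of 166) and 0 with no normalization (1 of 166). With U6 alone 7 leukocyte miRNAs were higher after 4 weeks (80 of 165) and 3 after 8 weeks (40 of 165). Under other references the median difference of the hepatocyte list was 0.603 after 1 week with snoRNA202 alone, and that of the leukocyte list -0.59 with U6 alone. Over the endothelial miR-126 pair it was 0.828 to 1.17, 1.46 to 1.53, 0.212 to 0.369 and 0.392 to 0.699, with both lower after 4 weeks (16.9% of all assays). That count stayed at 2 with the geometric mean (23 of all 166 assays lower), and was 1 with snoRNA135 alone (16 of 165) and 0 under the other scalings tried (2 to 23 assays).

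Over 5 tested mesenchymal miRNAs of 6 the level was 0.943 to 1.06 untreated and 1.00 to 1.06, 1.24 to 1.68 and 0.950 to 1.17 at the 3 times, with 1, 2 and 0 higher (18.1%, 13.3% and 2.41% of all assays). These counts turned with the scaling. After 1 week 4 were lower and 0 higher with U6 alone (124 and 2 of all 165 assays), and 4 were higher with snoRNA202 alone (81 of 165). After 4 weeks 1 was higher with the geometric mean or quantile normalization (12 and 20 of 166), and 0 with no normalization (1 of 166). At that time 3 were higher with the mean of the controls (45 of 166) or snoRNA202 alone (33 of 165). With U6 alone 4 were higher after 4 weeks (80 of 165) and 2 after 8 weeks (40 of 165). With the mean of the controls 1 was higher after 8 weeks (11 of 166). Over 2 tested erythroid miRNAs of 3 it was 0.848 to 1.22 on all treated cards, and over 4 tested epithelial miRNAs of 5 it was 1.08 to 1.24, 0.606 to 0.872 and 0.557 to 0.687, none of them called with this centring. With U6 alone 2 erythroid and 3 epithelial miRNAs were lower after 1 week, and with snoRNA202 alone 1 and 3 were higher. The epithelial range after 8 weeks overlapped that after 4 weeks. The lists share miR-192, miR-155, miR-199a-3p and miR-429 with the low-oxygen lists and miR-101a and miR-143 with the assays most like miR-210. Their part in the values of miR-210 was not tested.

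The control RNAs also moved with the groups. U6 was at 2.38 after 1 week (limma adjusted p = 0.00800), -1.50 after 4 weeks (adjusted p = 0.0417) and -1.11 after 8 weeks (adjusted p = 0.172), and snoRNA202 at -1.39 (adjusted p = 0.0139), -0.39 and -0.21, while snoRNA135 was within -0.27 and -0.03. Of the 8 fits without 1 card, the calls of U6 held in 6 after 1 week and 2 after 4 weeks, and that of snoRNA202 in 5. Over all 166 tested assays limma called 30 assays up and 24 down after 1 week, 22 up and 28 down after 4 weeks, and 4 up and 1 down after 8 weeks. The split depended on the scaling: with the mean of the controls it was 22 up and 25 down, 45 and 11, and 11 and 1. With the geometric mean of all determined assays it was 18 and 33, 12 and 23, and 1 and 0. After 8 weeks the lower assay was miR-802 and the higher ones were miR-34a, miR-184, miR-410 and miR-409-3p, the last 2 named after their values had been seen. The call of miR-802 was lost with the geometric mean, no normalization, U6 alone, snoRNA202 alone and in the fit to the groups compared. That of miR-184 was lost with the geometric mean, quantile normalization, no normalization and in the fit to the groups compared.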

How the data were processed

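Total RNA from whole liver was reverse transcribed without pre-amplification and run on TaqMan Array Rodent MicroRNA A Cards. The authors deposited raw Ct values per card, left empty where undetermined; the software that set the threshold is not given in the sources used here. They also deposited fold changes of the groups against untreated liver, their own comparison, which were not used.

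Groups and replicate numbers came from the labels; except after 8 weeks, the design text lists other numbers of mice than the 2 cards per group used here. Each Ct was subtracted from its card mean over 149 assays that stayed under Ct 35 throughout. Tests used limma 3.58.1 (R 4.3.3; lmFit and eBayes, a single model of all cards, 3.47 prior degrees of freedom) on the 166 assays determined on all 8 cards whose mean Ct was under 35, with Benjamini-Hochberg adjustment within each comparison at 0.05. Of the 381 assays, 168 had a Ct on every card and 102 on none. The number of cards limits the precision. The procedure was tested on simulated data. Tables were handled with Python 3.11.15, pandas 2.3.3 and numpy 2.4.6, and plots drawn with matplotlib 3.10.9.

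miR-210 and the lists (miRNAs raised at low oxygen, miRNAs reported to target Hif1a, and hepatocyte, leukocyte, mesenchymal, endothelial, erythroid and epithelial markers) were chosen with earlier results of these data known. Also named were the control RNAs, the neighbours of miR-210 in the order of differences, and the 5 assays of highest and 3 of lowest Pearson r with it. Other scalings, Ct limits (32, none, undetermined set to 40), a replicate block, a fit to the groups compared, and each card left out were tried.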

Additional observations from a re-analysis of the deposited data

Results flagged for a closer look

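The assays below were picked out because their difference from untreated liver was not the same at 2 times by limma with Benjamini-Hochberg adjustment. The values are log2 differences between the times, which do not involve the untreated cards. The adjusted p-values do involve them, since the single fit draws its estimate of spread from all cards.

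Among miRNAs raised at low oxygen, 4 weeks minus 1 week was 1.95 for miR-125b-5p (adjusted p = 0.0218), 2.23 for miR-181a (adjusted p = 0.0218), -2.18 for miR-192 (adjusted p = 0.00652) and -1.49 for miR-24 (adjusted p = 0.00903), and 8 weeks minus 1 week was -1.20 for miR-24 (adjusted p = 0.0332). With U6 alone the sign turned for miR-192 (1.70) and miR-24 (2.39 and 2.29). Both calls for miR-24 were lost with the geometric mean, the mean of the controls and no normalization, that after 4 weeks also without 4-week replicate 2, and that after 8 weeks also when undetermined values were set to Ct 40, with quantile normalization, and without either 1-week card or 8-week replicate 2. miR-125b-5p and miR-181a stayed above 0 under every scaling, but the call of each was lost with no normalization, snoRNA202 alone or undetermined values set to Ct 40, and without 1-week replicate 2 or 4-week replicate 2, that of miR-125b-5p also without 1-week replicate 1.

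Among miRNAs reported to target Hif1a, 4 weeks minus 1 week was 1.34 for miR-20a (adjusted p = 0.0270) and -2.17 for miR-429 (adjusted p = 0.0242), the latter 1.72 with U6 alone. The call for miR-20a held in 3 of 7 other scalings and was lost without 1-week replicate 2, without 4-week replicate 1, in the fit to the groups compared and with undetermined values set to Ct 40. That for miR-429 was lost without either 1-week card, without 4-week replicate 2, with the mean of the controls and with undetermined values set to Ct 40.

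Among the assays most like or most opposite to miR-210, 4 weeks minus 1 week was -0.91 for miR-139-5p (adjusted p = 0.0403), -1.67 for miR-101a (adjusted p = 0.0311), -1.99 for miR-30e (adjusted p = 0.00652) and 1.08 for miR-497 (adjusted p = 0.0350), and 8 weeks minus 1 week was -1.36 for miR-30e (adjusted p = 0.0332). With U6 alone miR-139-5p was at 2.98, miR-101a at 2.21 and miR-30e at 1.89 and 2.12. Of the 8 fits without 1 card, the 4-week calls held in 0 for miR-139-5p, 3 for miR-101a, 8 for miR-30e and 2 for miR-497, and the 8-week call of miR-30e in 5; with the geometric mean only the 4-week call of miR-30e held.

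Among the control RNAs, U6 was at -3.88 (adjusted p = 0.00221) and -3.49 (adjusted p = 0.00455) after 4 and 8 weeks minus 1 week, and snoRNA202 at 1.00 (adjusted p = 0.0311) and 1.18 (adjusted p = 0.0332). The calls of U6 held in each of the 8 fits without 1 card and were lost with quantile normalization, while those of snoRNA202 held in 3 and 5 of the 8. miR-210 itself was at -0.12 and -1.01 in these comparisons, given without a test.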

How the results depend on the processing

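Of 60 alternative values of miR-210, 24 could not move by construction or did not, 34 of the other 36 were below 0, and 2 were above 0. These were 0.40 after 1 week with snoRNA202 alone and 0.39 after 4 weeks with U6 alone, settings added after the data had been seen. Of 10 shifts beyond 1 replicate SD with the sign kept, 6 came from leaving out an untreated card. The others were -3.37 (1 week) and -0.90 (8 weeks) with U6 alone, and after 4 weeks -0.47 with the mean of the 3 controls and -1.96 with no normalization. With each card left out in turn the 1-week value ran from -1.68 to -0.31, the 4-week value from -1.80 to -0.43 and the 8-week value from -2.69 to -1.32. The 2 cards per group limit all of these, and with U6 alone every assay had the same standard error, 0.72, so counts there carry the spread of U6.

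The count of assays changed by limma was 54 after 1 week, and 5 with no normalization, 126 with U6 alone and 15 to 59 without 1 card. It was 50 after 4 weeks, and 10 with no normalization, 82 with U6 alone, 33 with snoRNA135 alone and 22 to 51 without 1 card. It was 5 after 8 weeks, and 1 with the geometric mean of all determined assays or with no normalization, 12 with the mean of the controls, 8 with a mean Ct below 32, 2 with undetermined values set to Ct 40, 40 with U6 alone, 0 in the fit to the groups compared (32 at an unadjusted p below 0.05) and 0 to 6 without 1 card (45 and 26 unadjusted where it was 0, without 8-week replicate 1 and 2). Higher and lower calls were 2 and 124, 80 and 2, and 40 and 0 at the 3 times with U6 alone, and 81 and 0, 33 and 10, and 4 and 0 with snoRNA202 alone. After 1 week they were 34 and 8 with snoRNA135 alone and 4 and 1 with no normalization, and after 4 weeks 1 and 9 with no normalization.

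Of the 19 low-oxygen list members, limma called 5 after 1 week, and 0 with no normalization, 2 with undetermined values set to Ct 40, 18 with U6 alone, 1 with snoRNA135 alone and 0 to 6 without 1 card. It called 7 after 4 weeks, and 2 with the geometric mean, with no normalization or with snoRNA135 alone, 4 with quantile normalization, 3 in the fit to the groups compared and 2 to 5 without 1 card. Of all 166 assays it called 54 after 1 week, and 5 with no normalization. With undetermined values set to Ct 40 it called 37 of 217, and with U6 and snoRNA135 alone 126 and 42 of 165. After 4 weeks it called 50 of 166, and 35 with the geometric mean, 10 with no normalization and 43 with quantile normalization. The fit to the groups compared called 37, and snoRNA135 alone 33 of 165. The 0 after 8 weeks stood under every alternative run. Of all 166 assays 5 were called then, 0 in the fit to the groups compared and 40 of 165 with U6 alone.

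With the replicate block the counts were 50, 49 and 4 assays, and the within-pair differences of same-numbered cards correlated between -0.50 and 0.43, so the numbers were not taken to pair cards. With the untreated numbers crossed, a choice made after the data had been seen, the replicate block gave 74, 65 and 17.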
